A study of Mus musculus with 4 samples.

Results

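The genes described here are 47 genes of ribosome biogenesis and the nucleolus, chosen by symbol in the deposited count tables of CD4+ T cells, taken from WT or Mek1/2-tKO mice, that had been polarized in vitro towards T follicular helper (Tfh) cells. All 47 were found among the 54752 listed genes, and all 47 were among the 14330 genes with enough counts to be tested. The Mek1/2-tKO mice, on a C57BL/6 background, were Map2k1 fl/fl and Map2k2 fl/fl and carried the Cre transgene (Cd4-Cre+), which is driven by the Cd4 promoter and targets both MEK genes in the T-cell lineage, and the WT mice were the controls. For both genotypes, naïve CD4+ T cells were taken from the spleen, activated with plate-bound anti-CD3 and anti-CD28 in medium with IL-6 and with antibodies that block TGF-β, IFN-γ, IL-2 and IL-4, and re-sorted as viable cells on day 3 for RNA sequencing. There were 2 libraries per genotype. The sources used here give neither the age nor the sex of the donors of these cultures, and they do not say whether the 2 libraries came from separate mice, so the p-values measure only the spread between these libraries, which may be technical. The question addressed is how the transcripts of the ribosome-making machinery differ between the libraries labelled Mek1/2-tKO and those labelled WT.

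A ribosome is built in the nucleolus. RNA polymerase I copies the ribosomal DNA into a long precursor RNA, small nucleolar RNA-protein particles (snoRNPs) modify and fold that precursor, and a large assembly called the small-subunit processome cuts out and folds the part that becomes the small subunit, while separate sets of factors build the large subunit and escort both to the cytoplasm. T cells enlarge their nucleoli and raise ribosome production when they are activated, and the transcription factor Myc, which is induced by antigen-receptor signalling, is a known activator of many genes of this pathway.

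Library totals lay between 16330802 and 18931090 counts, and values are given as CPM, a library's counts scaled to a common total, after TMM scaling, where 3 counts correspond to 0.154 to 0.194 CPM. An adjusted p below comes from edgeR's quasi-likelihood test with adjustment over all 14330 tested genes, and a gene was called higher or lower when that p was under 0.05 and the fold change was at least 1.5, or 0.585 on the log2 scale. Standard errors are written SE. The smallest two-sided p that an exact permutation of 2 against 2 libraries allows is 0.333. The targeted Map2k1 was at 182 and 187 CPM in WT and 98.0 and 105 CPM in Mek1/2-tKO, a log2 fold change of -0.86 (SE 0.08, adjusted p = 1.29e-06). Map2k2 was at 154 and 165 CPM in WT and 172 and 182 CPM in Mek1/2-tKO (0.15, adjusted p = 0.126) and did not pass, and whole-gene counts do not separate transcripts that lack the floxed exons from full ones. Transcripts that define other cell types went with the genotype, and the libraries labelled as Mek1/2-tKO CD4+ T cells had little Cd4 itself (18.8 and 25.1 CPM, against 297 and 289.5 CPM in WT). Of the markers of each type that could be tested, 12 of 12 B-lineage genes were higher in Mek1/2-tKO (summed level 1267 to 1288 CPM in WT and 6928 to 6977 in Mek1/2-tKO), as were 11 of 12 NK-cell genes (134 to 139 and 849 to 930.0, with Itga2 lower), 6 of 6 gamma-delta T-cell genes (22.4 to 23.8 and 282 to 290), both CD8 genes (59.3 to 67.4 and 214 to 238) and 6 of 6 myeloid genes (52.4 to 61.6 and 252 to 265). These sums also take in listed genes that could not be tested, and so cover 8 gamma-delta and 10 myeloid genes. Blk stands in both the B-lineage and the gamma-delta list, at 14.88 and 17.84 CPM in WT and 104.8 and 116.3 CPM in Mek1/2-tKO. It is therefore not separate evidence of gamma-delta T cells. The other tested gamma-delta genes had log2 fold changes from 3.132 (Sox13) to 5.777 (Tcrg-C4). Of 10 genes of alpha-beta CD4 T cells, 5 were lower and 0 higher, and their summed level went from 2425 to 2434 CPM in WT to 1501 to 1685. The macrophage marker Adgre1 was at 0 in both WT libraries, and no B-lineage, NK-cell or CD8 marker was at 0 in any library. The part of these other cells in the results below was not tested, and in bulk RNA fewer cells of a type and less RNA per cell cannot be told apart.

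Of the 47 ribosome biogenesis and nucleolar genes, 8 were called lower in Mek1/2-tKO and 2 were called higher. The genes called lower were Utp20, Heatr1, Polr1a, Polr1b, Rrp1b, Mybbp1a, Rrp12 and Tsr1, with log2 fold changes from -1.17 to -0.59, and those called higher were Nop10 (0.64) and Nhp2 (0.63). The 8 genes are 17.0% of the 47, next to 16.4% of all tested genes called lower, so that the count of lower calls was near the background. The 2 genes are 4.26% of the 47, next to 19.3% of all tested genes called higher. Without the fold threshold, 24 of the 47 genes (51.1%) were lower and 10 (21.3%) were higher at an adjusted p under 0.05, next to 27.2% lower and 27.8% higher of all tested genes. The median log2 fold change was -0.23 over the 47 genes and 0.02 over all tested genes. Together the 47 genes took 1.44 and 1.43% of the counts in the WT libraries and 1.14 and 1.19% in the Mek1/2-tKO libraries. Ncl alone, which had the most counts of them, went from 3409 and 3206 CPM in WT to 2582 and 2744 CPM in Mek1/2-tKO. Leaving out 1 library at a time, 7 to 9 of the 47 genes were called lower, while the number called higher fell to 0 without Mek1/2-tKO replicate 1 and rose to 4 without Mek1/2-tKO replicate 2. When the libraries were scaled by their totals alone, 13 were lower and 0 higher.

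**Figure D1:**
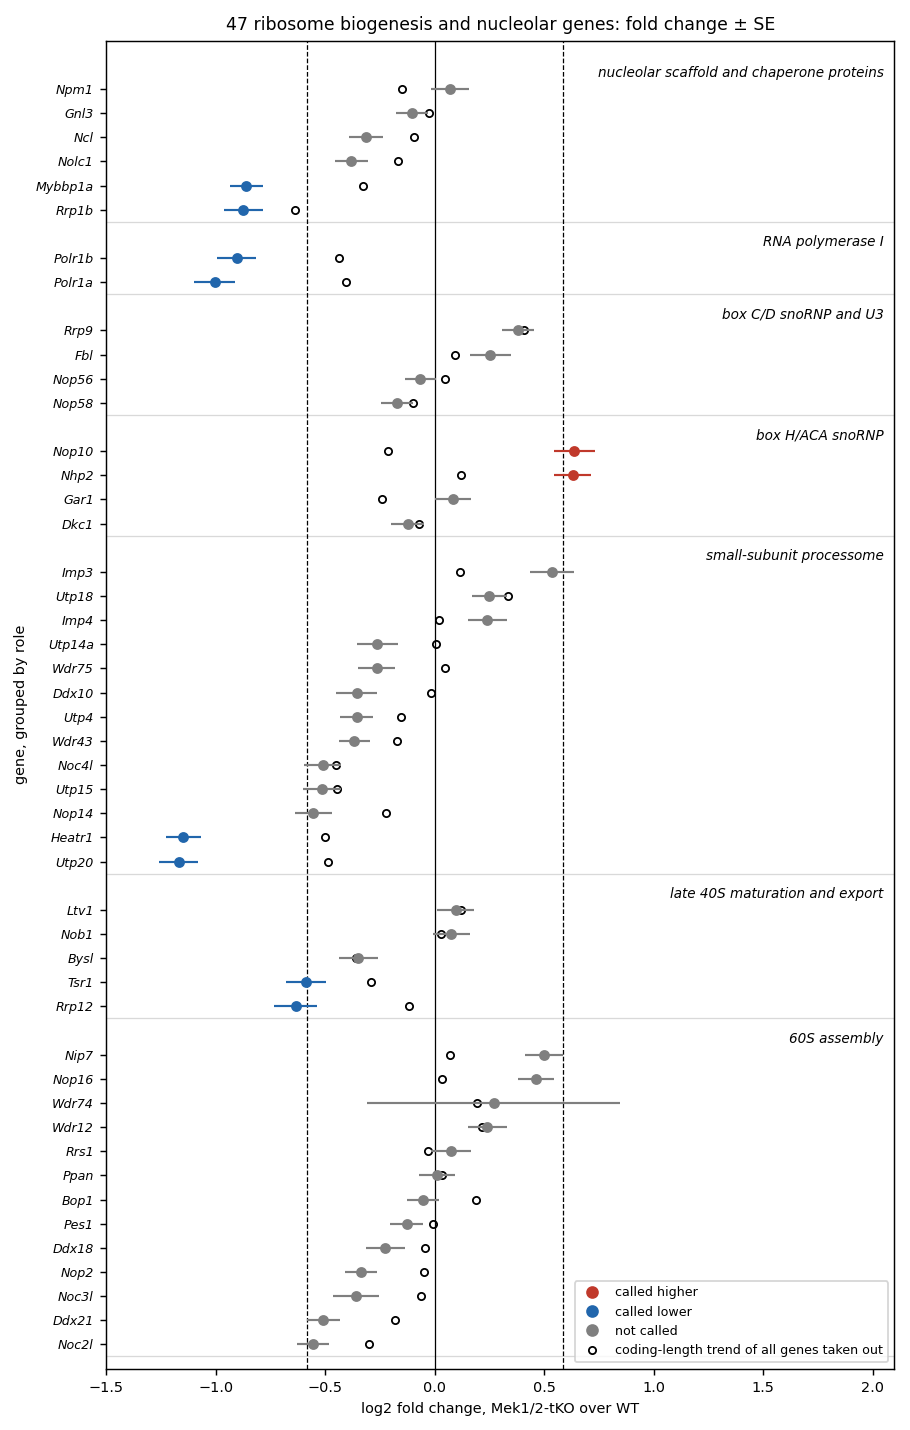
Log2 fold change (Mek1/2-tKO over WT, horizontal axis) of each of the 47 genes, grouped by role on the vertical axis. Filled points are the fitted values with their standard errors, coloured by call, dashed lines mark a fold change of 1.5, and open circles are the values after the coding-length trend of all genes was taken out. The 8 genes called lower lie left of the left line and Nop10 and Nhp2 right of the right line, while 1 open circle, that of Rrp1b, lies outside the lines.

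The fold changes of the 47 genes were ordered by the length of their coding sequence. The 2 genes called higher had coding sequences of 192 bases (Nop10) and 459 bases (Nhp2), and 7 of the 8 genes called lower were in the longest of 5 equal classes of all tested coding genes by length, from 2400 bases upwards. Over the 47 genes Spearman's rho between log2 fold change and coding length was -0.87, and over all 11851 tested genes with a coding part it was -0.45. For transcript length rho was -0.67 over the 47 genes and -0.44 over all, and for exon length -0.53 and -0.40. These are descriptions across genes that share the same 4 libraries, and genes are not independent replicates. In the shortest class the median log2 fold change was 0.52 for the 6 genes of the pathway and 0.49 for all genes, in the next class 0.16 for 4 genes and 0.16 for all, in the middle class 0.04 for 10 genes and -0.06 for all, in the next -0.26 for 15 genes and -0.25 for all, and in the longest -0.61 for 12 genes and -0.55 for all. The genes of the pathway thus lay close to other genes of like length in all 5 classes. In the longest class 44.0% of all tested genes were called lower, and 7 of the 12 genes of the pathway were.

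**Figure D2:**
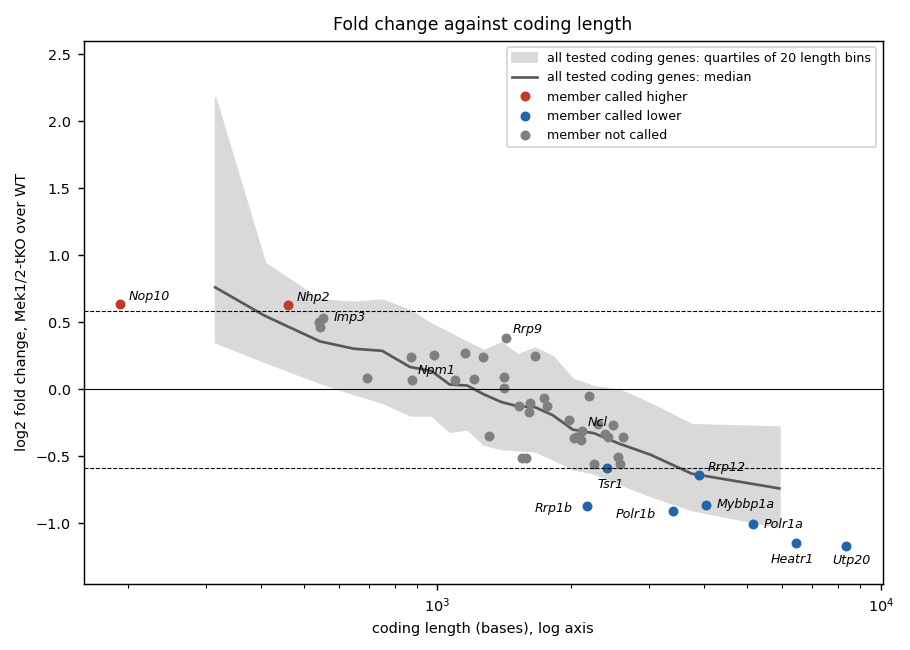
Log2 fold change (Mek1/2-tKO over WT) against coding length in bases on a log axis. Points are the 47 genes, coloured by call, and the line and band are the median and quartiles of all tested coding genes in 20 bins of equal size by coding length. Of the 47 points 40 lie between the quartiles of their bin, and the dashed lines mark a fold change of 1.5.

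In 20 finer bins of coding length, 40 of the 47 genes lay between the quartiles of all genes in their bin. The 6 genes under the lower quartile were Heatr1, Noc4l, Polr1b, Rrp1b, Utp15 and Utp20, and the 1 gene over the upper quartile was Rrp9. Heatr1 and Utp20 were in the last bin, which has no upper end, and were longer than its median gene. An ordering by length was also present between the 2 Mek1/2-tKO libraries, where rho for the log2 ratio of replicate 2 over replicate 1 was 0.32 over all genes and 0.37 over the 47 genes. Between the 2 WT libraries it was 0.02 over all genes and near zero over the 47 genes. For the 4 pairs of a Mek1/2-tKO and a WT library, rho was -0.40 to -0.47 over all genes and -0.85 to -0.86 over the 47 genes. When the trend with coding length over all genes was taken out of the fit, a step chosen after seeing the data, 1 of the 47 genes was called lower (Rrp1b) and 0 were called higher, while 11.9% of all genes were still called lower and 16.3% higher. At an adjusted p under 0.05 alone, 13 of the 47 genes (27.7%) were then lower and 3 (6.38%) higher, next to 23.1% lower and 21.7% higher of all tested genes, and the median of the 47 genes was -0.06. These shares are of all 14330 tested genes, and the coding-length trend was taken out only for the 11851 with a coding part. With a trend over transcript length taken out instead, 4 of the 47 genes were called lower, 3 of them called lower in the fit without a trend, and 3 were called higher, none of which had been. What set the length trend was not tested, and the fold changes given below are the fitted ones, with the value after this step beside them where it changes a call.

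**Figure D3:**
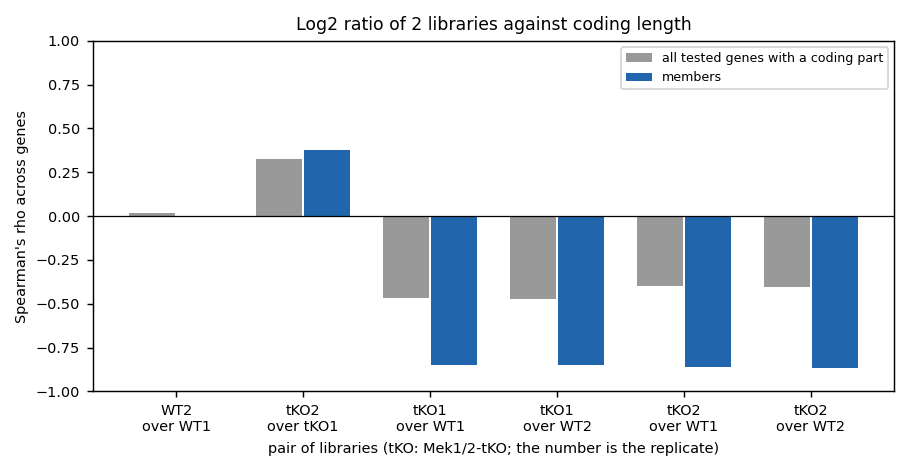
Spearman's rho across genes between coding length and the log2 ratio of 2 libraries, for all 11851 tested genes with a coding part (grey) and for the 47 genes (blue). The bars are near 0 between the WT libraries, positive between the Mek1/2-tKO libraries (0.32 and 0.37) and negative in each of the 4 pairs across genotypes, down to -0.86 for the 47 genes.

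Promoters were read for the word CACGTG, the E-box that Myc binds together with Max and that other factors bind as well. The promoter table (RefSeq, GRCm38.p6, 250 bases before to 50 bases after a start site) held 42 of the 47 genes, and Fbl, Rrp12, Npm1, Rrs1 and Bop1 had no entry. The word, which reads the same on both strands, was in the promoters of 10 of the 42 genes (23.8%), of 11.8% of 9584 tested genes and of 8.09% of all 27025 genes of the table. The related word CGCGTG, searched on both strands, was in 14 of the 42 (33.3%), in 20.1% of the tested genes and in 10.5% of all genes. A match is a description of these letters and not a bound site. Stretches of 30 bases around CACGTG, with the word in capitals, are shown for 3 genes called lower (Utp20, Mybbp1a and Tsr1) and for the 3 with the word and a positive fold change (Imp4, Utp18 and Ltv1), because the same word stands near the start of genes called lower and of genes that were not called.
Utp20: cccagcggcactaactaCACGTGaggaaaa
Mybbp1a: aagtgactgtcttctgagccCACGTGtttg
Tsr1: tcacttggtgcaCACGTGgactgcagaatg
Imp4: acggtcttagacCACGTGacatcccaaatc
Utp18: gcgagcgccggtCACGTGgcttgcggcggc
Ltv1: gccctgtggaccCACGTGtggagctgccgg
On GRCm38.p6 these stretches lie at chr10:88826765-88826794 (-), chr11:72441347-72441376 (+), chr11:74898092-74898121 (+), chr1:34439696-34439725 (+), chr11:93885769-93885798 (-) and chr10:13193092-13193121 (-), each read 5′ to 3′ on the strand of its gene. As fitted, the median log2 fold change was -0.35 for the 10 genes with the word, of which 3 were called lower and 0 higher, and -0.24 for the 32 without it, of which 4 were called lower and 2 higher. This difference was not tested. The 3 genes with the word that were called lower are all in the longest class by coding length. With the coding-length trend taken out, none of the 10 was called, and Rrp1b alone of the 32 was. Over the 10 genes with the word the log2 fold changes ran from -1.17 for Utp20 to 0.25 for Utp18.

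Both subunits of RNA polymerase I in the list were called lower. Both genes are in the longest class by coding length, where 44.0% of all tested genes were called lower. Polr1a encodes the largest subunit (chromosome 6, 71909053 to 71984935, GRCm38), and its transcript was at 144 and 158 CPM in the WT libraries and 70.9 and 78.9 CPM in the Mek1/2-tKO libraries. Each Mek1/2-tKO library was far below both WT libraries, and the groups did not overlap. The log2 fold change was -1.01 (SE 0.09, adjusted p = 9.22e-07), and it was -0.40 with the coding-length trend taken out, where it was not called. Polr1b, which encodes the second-largest subunit and had the higher level per length of the pair, was at 113 and 119 CPM in WT and 62.1 and 61.7 CPM in Mek1/2-tKO. Its replicates were close together in both genotypes, the groups did not overlap, and the log2 fold change was -0.91 (SE 0.09, adjusted p = 1.80e-06), or -0.44 without the trend, where it was not called. Of 16 alternative settings, Polr1b was called lower in 15 and Polr1a in 13.

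Among 6 nucleolar scaffold and chaperone genes, 2 (33.3%) were called lower and 0 higher, next to 16.4% lower and 19.3% higher of all tested genes. Rrp1b, a nucleolar protein of the family of yeast Rrp1, which acts in large-subunit assembly (chromosome 17, 32036100 to 32062865), was at 151 and 165 CPM in WT and 90.4 and 82.0 CPM in Mek1/2-tKO. Both Mek1/2-tKO libraries were well below both WT libraries, with a log2 fold change of -0.87 (SE 0.09, adjusted p = 2.60e-06). It was the 1 gene of the 47 still called with the coding-length trend taken out (-0.64), although it was not called with a trend over exon length or transcript length taken out, at -0.57 and -0.51. Mybbp1a, a Myb-binding protein that acts in the transcription and processing of precursor rRNA, was at 954 and 987 CPM in WT and 513 and 556 CPM in Mek1/2-tKO (-0.86, SE 0.08, adjusted p = 6.18e-07). The groups were far apart for its transcript, and its value without the trend was -0.33, where it was not called. Nucleolin (Ncl), an abundant RNA-binding protein needed for rRNA transcription and processing, had the highest level per length of its group, with 3409 and 3206 CPM in WT and 2582 and 2744 CPM in Mek1/2-tKO. Both Mek1/2-tKO libraries were lower, but the log2 fold change of -0.31 (SE 0.08, adjusted p = 0.00386) was under the fold threshold, and it was -0.09 without the coding-length trend and 0.07 and 0.22 with trends over exon and transcript length taken out. Nolc1, a chaperone of snoRNPs, was at 554 and 576 CPM in WT and 417 and 449 CPM in Mek1/2-tKO (-0.38, adjusted p = 7.02e-04), again lower in both Mek1/2-tKO libraries and under the fold threshold. Nucleophosmin (Npm1), a histone and ribosome chaperone, had 631 and 619 CPM in WT and 715 and 598 CPM in Mek1/2-tKO, and the groups overlapped (0.07, adjusted p = 0.52). The GTPase nucleostemin (Gnl3) was at 248 and 244 CPM in WT and 232 and 226 CPM in Mek1/2-tKO (-0.10, adjusted p = 0.246) and did not pass.

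Of 13 genes of the small-subunit processome, 2 (15.4%) were called lower and 0 higher, next to 16.4% lower and 19.3% higher of all tested genes. These 2 had the largest log2 fold changes of the 47 genes. Utp20, a very large repeat protein of the processome (chromosome 10, 88746607 to 88826804), was at 143 and 131 CPM in WT and 60.9 and 60.8 CPM in Mek1/2-tKO. The 2 Mek1/2-tKO values were almost the same and under both WT values by more than the WT spread, with a log2 fold change of -1.17 (SE 0.09, adjusted p = 1.66e-07). Heatr1, the mammalian Utp10 and a member of the subcomplex that ties rRNA transcription to processing (chromosome 13, 12395027 to 12440289), was at 209 and 212 CPM in WT and 95.3 and 94.2 CPM in Mek1/2-tKO (-1.15, SE 0.08, adjusted p = 5.13e-08). Its replicates were within a few CPM of each other in both genotypes and the groups did not overlap. Each of these genes was called lower in 15 of 16 alternative settings, and neither was called with the coding-length trend taken out (-0.49 for Utp20 and -0.50 for Heatr1). The other members of that subcomplex were under the fold threshold, with log2 fold changes of -0.51 for Utp15 (adjusted p = 2.46e-04), -0.37 for Wdr43 (adjusted p = 6.64e-04), -0.36 for Utp4 (adjusted p = 0.00149) and -0.27 for Wdr75 (adjusted p = 0.0148). With the coding-length trend taken out, the values were -0.45 for Utp15, -0.17 for Wdr43, -0.155 for Utp4 and 0.05 for Wdr75. Of these 4 genes only Utp15 then had an adjusted p under 0.05. Nop14 (-0.55) and its partner Noc4l (-0.51) passed the adjusted p (9.48e-05 and 1.71e-04) but not the fold threshold, and Noc4l was called lower in 4 of 16 alternatives and Nop14 in 3. The helicase Ddx10 (-0.36, adjusted p = 0.0055) and Utp14a, the partner of a processome helicase (-0.26, adjusted p = 0.0271), were lower by less.

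In the same group, 3 genes went the other way. Imp3, which helps to pair the U3 small nucleolar RNA with the precursor, had the highest level per length of the group and was at 157 and 156 CPM in WT and 254 and 199 CPM in Mek1/2-tKO. Both Mek1/2-tKO libraries were higher, with replicate 1 far above replicate 2, and the log2 fold change of 0.53 (SE 0.10, adjusted p = 5.17e-04) was under the fold threshold. Without Mek1/2-tKO replicate 2 it was 0.69 and called, and with the coding-length trend taken out it was 0.11. Its partner Imp4 was at 143 and 153 CPM in WT and 189 and 161 CPM in Mek1/2-tKO (0.24, adjusted p = 0.036), and it was called higher with the transcript-length trend taken out (0.68). Utp18, of another processome subcomplex, was at 123 and 119.7 CPM in WT and 144 and 144 CPM in Mek1/2-tKO (0.25, adjusted p = 0.0176). Its coding sequence of 1656 bases is longer than the median gene's, and without the length trend its value was 0.34.

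Of the 8 snoRNP genes, 2 of 4 in each class, box H/ACA and box C/D, were higher at an adjusted p under 0.05 and 0 were lower. Of all tested genes, 27.8% were higher and 27.2% lower at that threshold. With the coding-length trend taken out, only Rrp9 (0.41) of the 8 was higher at that threshold, and Gar1 (-0.24) was lower. Fbl was then at 0.09. Box H/ACA particles, which turn uridines into pseudouridines and whose 4 proteins are also part of telomerase, held both genes of the 47 that were also past the fold threshold. Nop10, the smallest of the 4 (chromosome 2, 112261926 to 112263269), was at 141 and 146 CPM in WT and 246 and 201 CPM in Mek1/2-tKO. Both Mek1/2-tKO libraries were above WT, though they differed from each other by far more than the WT libraries did, and the log2 fold change was 0.64 (SE 0.09, adjusted p = 7.09e-05). Nhp2 (chromosome 11, 51619735 to 51623714) had the highest level per length of all 47 genes, 331 RPKM in WT and 512 RPKM in Mek1/2-tKO. Its libraries were at 369 and 389.6 CPM in WT and 632 and 542 CPM in Mek1/2-tKO, again with replicate 1 the higher of the Mek1/2-tKO pair, and the log2 fold change was 0.63 (SE 0.08, adjusted p = 3.03e-05). Both lost the call without Mek1/2-tKO replicate 1, at 0.48 for Nop10 and 0.52 for Nhp2, and under scaling by library totals, at 0.55 and 0.54. With the coding-length trend taken out, Nhp2 was at 0.12 and Nop10 turned to -0.21, and neither was called. The pseudouridine synthase Dkc1 was at 246 and 238 CPM in WT and 214 and 230.5 CPM in Mek1/2-tKO (-0.12, adjusted p = 0.184), and Gar1 at 167 and 189 CPM in WT and 190.5 and 186 CPM in Mek1/2-tKO (0.08, adjusted p = 0.422), so that the catalytic subunit and its partner did not pass.

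**Figure D4:**
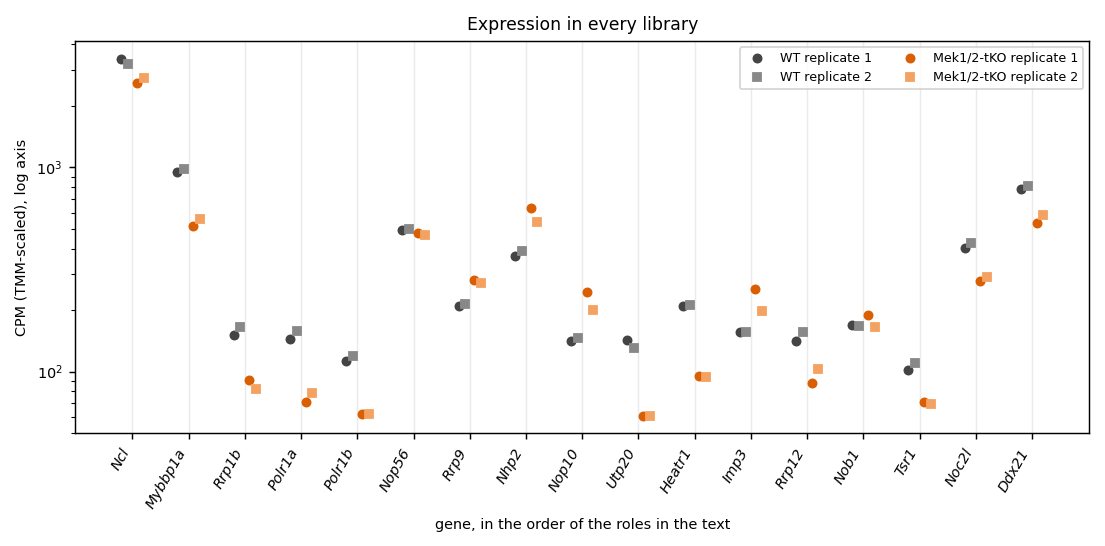
CPM after TMM scaling, on a log axis, in each of the 4 libraries for the 10 called genes and the other genes given in detail. Each point is a library, grey for WT and orange for Mek1/2-tKO, circles for replicate 1 and squares for replicate 2. For Nhp2, Nop10 and Imp3 the orange points lie above the grey ones and the orange circle is the highest, and for the 8 genes called lower both orange points lie below both grey points.

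Box C/D particles, which add methyl groups to rRNA, and the U3 protein Rrp9 had 0 of 4 genes called in either direction. Rrp9 was at 209.8 and 215 CPM in WT and 281 and 273 CPM in Mek1/2-tKO, higher in both Mek1/2-tKO libraries, with a log2 fold change of 0.38 (SE 0.07, adjusted p = 5.70e-04). With the coding-length trend taken out its value was 0.41, the highest of the 47 genes and still under the fold threshold. The methyltransferase fibrillarin (Fbl) was at 82.0 and 83.2 CPM in WT and 91.7 and 105 CPM in Mek1/2-tKO (0.25, adjusted p = 0.036), also higher in both. The core proteins Nop56 and Nop58 did not pass. Nop56, with the highest level per length of the group, was at 491 and 499 CPM in WT and 478 and 467 CPM in Mek1/2-tKO (-0.07, SE 0.07, adjusted p = 0.455), and Nop58 was at 378 and 395 CPM in WT and 341 and 345 CPM in Mek1/2-tKO (-0.17, adjusted p = 0.0555). Small nucleolar RNA genes on the same strand share 8% of the exon bases of Nop56.

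Of 5 genes of late small-subunit maturation and export, 2 were called lower and 0 higher, next to 16.4% lower and 19.3% higher of all tested genes. Both genes called lower are in the longest class by coding length, where 44.0% of all tested genes were called lower. Rrp12, an export factor, was at 141 and 156 CPM in WT and 87.9 and 103 CPM in Mek1/2-tKO. The groups did not overlap, with a log2 fold change of -0.64 (SE 0.10, adjusted p = 8.48e-05), but the value was -0.12 (adjusted p = 0.355) with the coding-length trend taken out. Tsr1, a GTPase-like factor of late maturation, was at 101 and 109.6 CPM in WT and 71.1 and 69.3 CPM in Mek1/2-tKO, and its log2 fold change of -0.59 (SE 0.09, adjusted p = 1.06e-04) was just past the threshold. With the coding-length trend taken out it was -0.29 (adjusted p = 0.0179) and not called. It was called in 8 of 16 alternative settings, and Srr on the other strand shares 32.3% of its exon bases. Bysl was at 107 and 113 CPM in WT and 83.3 and 89.6 CPM in Mek1/2-tKO, lower in both Mek1/2-tKO libraries and under the fold threshold (-0.35, adjusted p = 0.00441), with almost the same value without the length trend (-0.36). Nob1, the nuclease that makes the final cut of the small-subunit rRNA and the gene with the highest level per length here, was at 168 and 167 CPM in WT and 189 and 165 CPM in Mek1/2-tKO, and the groups overlapped (0.08, SE 0.08, adjusted p = 0.47). Ltv1 was at 106 and 109.6 CPM in WT and 112 and 118 CPM in Mek1/2-tKO (0.09, adjusted p = 0.363) and did not pass.

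None of the 13 genes of large-subunit assembly was called, although 5 (38.5%) were lower and 3 (23.1%) higher at an adjusted p under 0.05. Of all tested genes, 27.2% were lower and 27.8% higher at that threshold. Noc2l had the largest fold change of the group, at 404 and 427 CPM in WT and 276 and 289 CPM in Mek1/2-tKO (-0.56, SE 0.07, adjusted p = 2.64e-05), and Samd11 on the other strand shares 20.9% of its exon bases. Both of its Mek1/2-tKO libraries were far below both WT libraries, and it was called in 4 of 16 alternatives. Ddx21, a helicase of the nucleolus with the highest level per length of the group, was at 782 and 813 CPM in WT and 535 and 586 CPM in Mek1/2-tKO (-0.51, SE 0.08, adjusted p = 8.23e-05). The rRNA methyltransferase Nop2 (-0.34, adjusted p = 0.00141), the Noc2l partner Noc3l (-0.36, adjusted p = 0.00947) and the helicase Ddx18 (-0.23, adjusted p = 0.0447) were lower by less. With the coding-length trend taken out, Noc2l was at -0.30, Ddx21 at -0.18, Nop2 at -0.05, Noc3l at -0.06 and Ddx18 at -0.04. Only Noc2l of these 5 then had an adjusted p under 0.05. The short genes Nip7 and Nop16 were higher, Nip7 at 160.2 and 162 CPM in WT and 247 and 208 CPM in Mek1/2-tKO (0.50, adjusted p = 2.99e-04) and Nop16 at 158 and 160.3 CPM in WT and 233 and 206 CPM in Mek1/2-tKO (0.46, adjusted p = 3.22e-04). For both, Mek1/2-tKO replicate 1 was the highest library, and the values with the coding-length trend taken out were 0.07 and 0.03. Nip7 was called higher in 2 of 16 alternatives, without Mek1/2-tKO replicate 2 (0.61) and with the transcript-length trend taken out (0.62).

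The Pes1, Bop1 and Wdr12 proteins form 1 complex in large-subunit rRNA processing, and 0 of their 3 transcripts were called. Pes1 was at 206 and 209 CPM in WT and 196 and 184 CPM in Mek1/2-tKO (-0.13, adjusted p = 0.172), and Bop1 at 293 and 296 CPM in WT and 280.1 and 288 CPM in Mek1/2-tKO (-0.05, adjusted p = 0.55). Wdr12 passed the adjusted p in the other direction, at 86.2 and 86.5 CPM in WT and 106 and 98.1 CPM in Mek1/2-tKO (0.24, adjusted p = 0.0345), below the fold threshold. It was called higher with the trend over exon length (0.67) or transcript length (0.79) taken out, and not with that over coding length (0.22). Its Mek1/2-tKO libraries were both above WT, while those of Pes1 and Bop1 were both below. Rrs1 (0.07, adjusted p = 0.527) and Ppan (0.01, adjusted p = 0.916) did not pass either, and their groups overlapped. Wdr74 could not be read, since a second gene on the same strand shares 90.7% of its exon bases and its level was 0.726 to 1.23 CPM.

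The rest of the pathway, 136 further ribosome biogenesis genes of which 132 could be tested, had 19 genes called lower and 7 higher, or 14.4% and 5.30%, next to 16.4% and 19.3% of all tested genes. Their median log2 fold change was -0.08. The largest falls were in large-subunit factors, Urb1 (-1.25), Mdn1 (-1.15), a very large ATPase, and Pelp1 (-1.15), with adjusted p values of 1.12e-06, 8.72e-07 and 9.27e-07. The largest rises were in Utp23 (0.83), Pop7 (0.79), a protein of RNase MRP, and Dimt1 (0.71), an rRNA methyltransferase, with adjusted p values of 2.19e-04, 4.59e-05 and 0.00913. With the coding-length trend taken out, 6 of the 132 were called lower and 0 higher, next to 11.9% and 16.3% of all tested genes. Urb1 and Pelp1 were among the genes that kept a fold change past the threshold there (-0.60 and -0.68), and Mdn1 was not (-0.38).

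The genes of the ribosomal proteins, which the pathway assembles with rRNA, went the other way in their medians as fitted. Of 81 cytosolic ribosomal protein genes, 39 (48%) were called higher and 0 lower, with a median log2 fold change of 0.58. Of 77 mitochondrial ones, 12 (15.6%) were called higher and 0 lower, with a median of 0.39. Of all tested genes, 19.3% were called higher and 16.4% lower, so the mitochondrial share called higher was under the background. These are short genes, with a median coding length of 453 bases for the cytosolic ones, against 1740 bases for the 47 genes and 1335 bases for all tested genes. With the coding-length trend taken out, 0 of either set were called in either direction, next to 16.3% higher and 11.9% lower of all tested genes. The medians were then 0.07 and -0.01. With the transcript-length trend taken out, 4 cytosolic and 8 mitochondrial ones were called higher, with medians of 0.16 and 0.14. Of all 14330 tested genes, 2315 were called higher there. The median of the 47 genes was -0.06 with the coding-length trend taken out and -0.16 with the transcript-length trend taken out. The median of the cytosolic ribosomal protein genes stayed positive in both. What set the opposite directions was not tested.

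**Figure D5:**
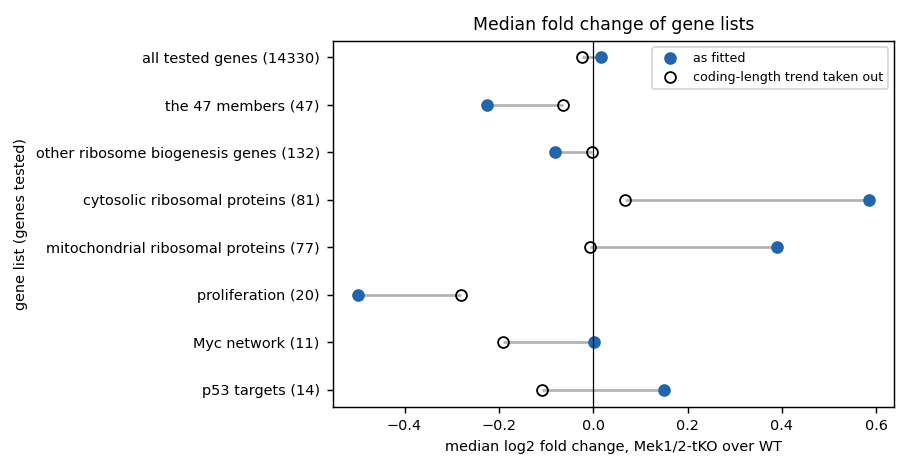
Median log2 fold change (Mek1/2-tKO over WT) of gene lists, with the number of genes tested in brackets. Filled points are the fitted medians and open circles the medians with the coding-length trend of all genes taken out. The 47 genes move from -0.23 to -0.06 and the cytosolic ribosomal protein genes from 0.58 to 0.07.

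Myc was at 264 and 289 CPM in WT and 112 and 130.2 CPM in Mek1/2-tKO, both Mek1/2-tKO libraries far under WT, with a log2 fold change of -1.19 (SE 0.09, adjusted p = 1.31e-07). It was called lower in 16 of 16 alternatives, and its value without the coding-length trend was -1.18. Of 11 genes of the Myc network, 3 (27.3%) were called lower and 1 (9.09%) higher, next to 16.4% lower and 19.3% higher of all tested genes. Among the lower ones was Mxi1 (-1.40), and the higher one was Mxd4 (2.40), both of which encode partners of Max that oppose Myc. Of 20 proliferation genes, 9 (45%) were called lower and 0 higher (median -0.50), against the same 16.4% and 19.3% of all tested genes. With the coding-length trend taken out, 3 of the 20 were lower and 0 higher, next to 11.9% lower and 16.3% higher of all tested genes. Of 14 tested targets of p53, a factor that is stabilized when ribosome assembly is disturbed, 5 (35.7%) were called higher and 1 (7.14%) lower. Of all tested genes, 19.3% were called higher and 16.4% lower. The 5 were Trp53inp1 (1.73), Phlda3 (1.54), Sesn1 (1.16), Bax (0.93) and Cdkn1a (0.91), and the lower one was Sesn2 (-1.53). With the length trend taken out, 3 were higher and 1 lower, and Cdkn1a and Bax were at 0.42 and 0.53 and no longer called, and Sesn2 was called lower in 16 of 16 alternatives. Of 11 tested snoRNA host transcripts, which carry small nucleolar RNAs in their introns, 4 (36.4%) were called higher, next to 19.3% of all tested genes, and 0 lower (median 0.56), and with the trend over transcript length taken out 1 was higher and 0 lower (median 0.33), while the trend over coding length could not be applied to these transcripts, which have no coding sequence.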

How the data were processed

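RNA of WT and Mek1/2-tKO cells was sequenced as stranded, paired-end mRNA libraries, 2 per genotype. The authors trimmed the reads with Trimmomatic (0.36), mapped them to GRCm38 with a program that the methods write as STRA, counted uniquely mapped reads per gene with featureCounts (Subread 1.5.1) and deposited 1 file of raw counts per library, with no normalization. Neither the annotation release nor whether featureCounts used the strand is given in the sources used here.

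Genotypes were compared by the robust quasi-likelihood test of edgeR 4.0.16 (R 4.3.3) on genes kept by filterByExpr, with TMM scaling and Benjamini-Hochberg adjustment over 14330 genes, after the script was tested on simulated data. The 47 genes and the other lists were chosen with earlier results of these data known. All 47 could be named; in each role the gene with the largest fold change and the one with the highest RPKM were given in full, with called genes that went against the median of the 47 and, of the other pathway genes, the 3 largest called changes in each direction with a mean log2 CPM not under 3. RPKM used the exon length in the deposited files, which covers the exons of all isoforms. Transcript and coding lengths came from GENCODE M21 on GRCm38 (the transcript with the longest coding sequence), and trends were taken out as lowess offsets (span 0.3) of the Mek1/2-tKO libraries. The alternatives tried were edgeR's likelihood-ratio test, DESeq2 1.42.0, 3 other scalings, 2 other filters, a replicate block, other fold thresholds, trends with exon length and GC content, and leaving out each library. The trends with transcript and coding length were added after seeing the data. Replicates of a genotype differed beyond sampling noise (chi-square per gene 4.11 in WT and 10.7 in Mek1/2-tKO). A floor of 3 counts covers counting error only. Polr1f, Polr1g and Polr1h of the pathway list were not matched by symbol.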

Additional observations from a re-analysis of the deposited data

How the results depend on the processing

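Of the 47 genes, 8 were called lower and 2 higher, with a median log2 fold change of -0.23, and no call among them was kept under all 16 alternatives that kept the thresholds. DESeq2, the likelihood-ratio test, DESeq2's size factors and the replicate block kept the side of the threshold of all 47 genes, and Myc was called lower in all 16. The labels do not say whether libraries with the same replicate number were handled together. Deviations of same-numbered libraries correlated at -0.03 across genes, and with the replicate block 2652 genes were called higher and 2300 lower. Library size scaling gave 0 higher and 13 lower of the 47 genes (median -0.31), and moved the share of higher genes among all calls from 54.0 to 45.6%. With the exon length trend taken out, 1 gene of the 47 was higher (Wdr12, not among the 2) and 7 lower, 4 of them among the 8 (median -0.20; 12 other pathway genes lower). With the transcript length trend taken out, 3 were higher (Imp4, Nip7 and Wdr12, 0 of them among the 2) and 4 lower, 3 of them among the 8 (median -0.16; 7 other pathway genes lower). With the coding length trend taken out, 0 were higher and 1 lower, Rrp1b (median -0.063; 0 other pathway genes higher and 6 lower). The median was -0.17 with upper-quartile scaling, -0.24 with no filter, -0.21 with at least 10 counts in every library and -0.17 with the GC trend taken out. The transcript and coding length trends were chosen after seeing the data, and the cause of these changes was not tested. With no fold threshold, 10 of the 47 genes were higher and 24 lower, of the other pathway genes 38 and 49, and of all genes 3903 were lower. At a fold change of at least 2 the 47 genes had 0 higher and 3 lower, the other pathway genes 0 and 5, and all genes 1725 and 1040. Leaving out 1 library at a time, 2338 to 2791 of all genes were higher and 2119 to 2627 lower, 0 to 4 and 7 to 9 of the 47 genes, and 6 to 12 and 16 to 22 of the other pathway genes, and the median ran from -0.23 to -0.21.

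Changes of sign concerned genes that were not called, with Nop10 as the exception. With library size scaling the log2 fold change was -0.018 for Npm1, -0.0038 for Gar1, -0.011 for Nob1, -0.0099 for Rrs1 and -0.071 for Ppan. With upper-quartile scaling it was 0.0028 for Bop1, and with the GC trend taken out -0.021 for Ppan. With the exon length trend taken out it was 0.073 for Ncl, -0.072 for Npm1, 0.14 for Gnl3, 0.23 for Nop58, -0.20 for Gar1, -0.11 for Ltv1, -0.18 for Rrs1 and -0.055 for Wdr74. With the transcript length trend taken out it was 0.22 for Ncl, -0.12 for Npm1, -0.042 for Fbl, 0.38 for Nop58, -0.20 for Gar1, -0.11 for Nob1, -0.022 for Rrs1, -0.024 for Wdr74 and -0.17 for Ppan. With the coding length trend taken out it was -0.15 for Npm1, 0.047 for Nop56, -0.24 for Gar1, -0.21 for Nop10, 0.046 for Wdr75, 0.0055 for Utp14a, -0.029 for Rrs1 and 0.19 for Bop1. Leaving out 1 library at a time, the ranges that crossed zero were -0.064 to 0.19 for Npm1, -0.0061 to 0.17 for Gar1, -0.026 to 0.17 for Nob1, -0.071 to 0.20 for Rrs1 and -0.10 to 0.11 for Ppan.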
